A study of Mus musculus with 4 samples.

Results

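The late-numbered microRNA entries of the mouse embryonic stem cell line CGR8 are those whose name carries a number of 1000 or higher, other than mir-1188, mir-1193 and mir-1197. They were chosen by name alone, and 197 of the 626 entries of the table met this rule. Of these, 38 are numbered in the 1000s, 1 in the 2000s, 46 in the 3000s, 16 in the 5000s, 50 in the 6000s and 46 in the 7000s to 9000s. The study compared embryoid bodies (EBs) at day 8 with embryonic stem cells (ESCs) at day 0 by small RNA sequencing, with 2 deposited columns for each group. EBs are aggregates in which stem cells begin to differentiate; they were grown without leukemia inhibitory factor (LIF) in 20% serum, for 2 days in drops of 1000 cells hung from a lid and for 6 more days in suspension. The ESCs they came from were grown without feeder cells on gelatin, with 100 U/ml LIF and 10% serum. The labels name no genetic change in either group, and give 129P2/OlaHsd as the donor strain and C57BL/6 as the background strain for both. Each group rests on this 1 cell line.

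MicroRNAs are short RNAs cut from hairpins. The nuclear enzyme Drosha, with its partner Dgcr8, frees most hairpins from a longer transcript, and Dicer then cuts out the mature strand, which guides Argonaute proteins to messenger RNAs through its seed (bases 2 to 8). Names are numbered in order of registration, so high numbers belong to microRNAs registered late, many of them after deep sequencing had found a few reads. Some hairpins are made without Drosha, from short introns or from snoRNAs and scaRNAs, the small RNAs of the nucleolus and the Cajal body that guide changes to other RNAs, and some entries lie in repeats.

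The sequences below are the mature strands of entries at least 2-fold apart between EBs and ESCs, and of 4 others that lie inside another small RNA. They come from RefSeq (GRCm38.p6), run 5′ to 3′, and carry the seed in capitals. The table counts hairpins, so which arm was sequenced is not known, and where RefSeq lists both arms of an entry past 2-fold both are shown. The first lines belong to entries that were higher in EBs, and miR-3473a is printed further on with its relatives.
miR-1187: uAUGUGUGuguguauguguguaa
miR-2137: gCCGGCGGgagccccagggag
miR-3060-5p: gGGAGUGCuucgugcuucug
miR-3060-3p: cCAUAGCAcagaagcacuccca
miR-5126: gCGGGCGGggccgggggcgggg
miR-6240: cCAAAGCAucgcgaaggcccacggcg
The next belong to entries that were lower in EBs.
miR-1191a: cAGUCUUAcuauguagcccua
miR-1195: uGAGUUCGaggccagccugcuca
miR-1198-5p: uAUGUGUUccuggcuggcuugg
miR-1198-3p: aAGCUAGCcucuaacucauggc
miR-1839-5p: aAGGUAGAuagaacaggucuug
miR-3618-5p: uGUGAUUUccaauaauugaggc
miR-3618-3p: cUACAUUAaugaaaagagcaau
miR-5113: aCAGAGGAggagagagauccugu
The last ones lie inside snoRNAs or scaRNAs, of which the 5p strand is shown for the scaRNA pair, and those of mir-1843a and mir-1843b overlap each other.
miR-3535: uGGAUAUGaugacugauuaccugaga
miR-5121: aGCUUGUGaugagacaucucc
miR-1843a-5p: uAUGGAGGucucugucugacu
miR-1843b-5p: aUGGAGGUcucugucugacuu
Of the entries at least 2-fold apart, no mature sequence was at hand for mir-5099, mir-6539, mir-1258 and mir-1949, so none is shown. A mature sequence was found for 180 of the 197 entries.

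The total microRNA count was 139034 and 139286 in the EB columns, against 555950 and 556337 in the ESC columns, so the ESC library was 4.0 times deeper. The columns of a group differed by less than counting error: their chi-square per degree of freedom was 0.285 in EBs and 0.236 in ESCs over all entries, and 0.217 in EBs and 0.301 in ESCs over the late-numbered ones. Of the late-numbered entries with a count, 70 of 97 in EBs and 122 of 167 in ESCs had the same count in both columns of their group. The pair was therefore counted as 1 sample, no difference between EBs and ESCs has a replicate check, and no test across conditions was made. Intervals below are exact 95% intervals for counting error only, at the mean count of the pair. Of the microRNAs that mark mouse stem cells and early embryonic cells, mir-290 to mir-295 held 52.3% of EB counts and 54.1% of ESC counts, and the mir-302 and mir-367 entries 6.54% of EB counts and 0.0342% of ESC counts. In bulk RNA, fewer cells with a microRNA and less of it per cell cannot be told apart.

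Most late-numbered entries were near the limit of detection. At least 1 count was found for 97 of the 197 in EBs and for 167 in ESCs. The median entry had a mean of 0 counts in EBs and 2 in ESCs, whereas the median of the other 428 entries was 25 counts in EBs and 55.3 in ESCs. A floor of 3 counts, which stands for 21.6 CPM (counts scaled to the same library total) in EBs and 5.40 in ESCs, was passed by 34 late-numbered entries in EBs and by 67 in ESCs. Of these, 31 passed in both groups, 3 in EBs alone and 36 in ESCs alone, and 127 passed in neither. A mean of 10 counts was reached by 20 entries in EBs and by 37 in ESCs.

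The greater number in ESCs went with the greater depth. Had the ESC library been read at the EB depth, 93.7 late-numbered entries would be expected with a count, beside 97 in EBs, and 30.4 above 3 counts, beside 34 in EBs. As a share, 49.2% of the late-numbered entries had a count in EBs, against 47.6% expected in ESCs at that depth. For the rest of the table the same shares were 93.0% in EBs and 85.2% in ESCs. The block numbered in the 7000s to 9000s had 41.3% of its entries counted in EBs, against 29.4% expected in ESCs at the EB depth and 73.9% found at full depth. Of its 19 entries counted in EBs, 12 had no ESC count and so add nothing to the expectation. Above 3 counts the block had 2 entries in EBs, against 1.07 expected, so nothing is read from the gap. The table itself lists few entries without any count, so which entries it holds depends on the deeper library too.

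Entries counted in 1 group alone were mostly single counts. Of the 28 found in EBs and not in ESCs, 23 had a mean of 1 count and 1 passed the floor, mir-2137 with 10. Of the 98 found in ESCs and not in EBs, 55 had a mean of 1 count, 18 passed the floor and the highest had 16. Both listed entries that were never counted, mir-3074-2 and mir-3473c, were at 0 in all 4 columns.

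**Figure D1:**
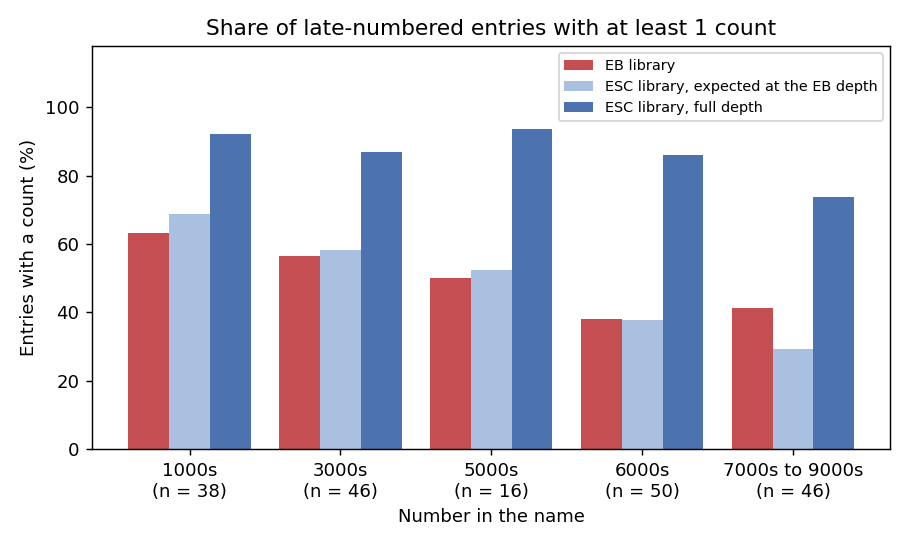
Share of late-numbered entries with at least 1 count (vertical axis, percent), by the number in their name (horizontal axis), for the EB library, for the ESC library at the EB depth (expectation) and for the ESC library at full depth. The full ESC library lies above the EB library in every block shown. At the EB depth the 7000s to 9000s have 29.4% expected against 41.3% in EBs, where 12 of the 19 counted entries had no ESC count. The block of 1 entry numbered in the 2000s is not drawn.

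The late-numbered entries together took 1.70% of all counts in EBs (95% interval 1.63 to 1.77) and 0.654% in ESCs (0.633 to 0.675). Scaled by trimmed mean of M values (TMM), their summed count was 2.13-fold higher in EBs (2.02 to 2.24). A single entry, mir-5099, held 70.9% of the late-numbered counts in EBs and 37.9% in ESCs. Without it the share was 0.495% in EBs (0.459 to 0.534) and 0.406% in ESCs (0.389 to 0.423), and the scaled sum was 0.998 times the ESC one (0.915 to 1.09). The higher sum in EBs therefore rested on mir-5099.

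mir-5099 (chromosome 12, 36816205 to 36816278, plus strand) has no host gene on its strand. It had 1683 and 1671 counts in the EB columns, against 1383 and 1375 in the ESC columns. By share of the library it ranked 13 of all entries in EBs and 58 in ESCs. It was 3.97-fold higher in EBs (3.70 to 4.27). The entries next to it in EB abundance were far below: mir-6240, mir-3535, mir-6236 and mir-5121 had 704, 582, 417 and 359 CPM in EBs, against 237, 266, 286 and 151 CPM in ESCs. In ESCs mir-1839 was next, at 64.7 CPM in EBs and 336 CPM in ESCs.

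**Figure D2:**
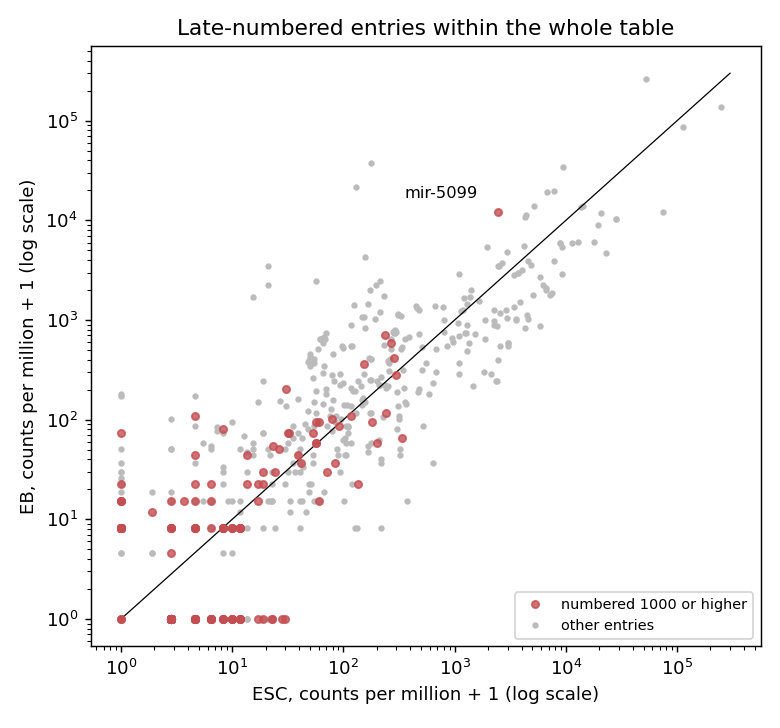
CPM plus 1 in EBs (vertical axis, log scale) against ESCs (horizontal axis, log scale) for every entry, with the late-numbered entries in red and the other entries in grey; the line marks equal values. Most late-numbered entries lie at the low end of both axes, and mir-5099 stands apart from them at 12051 CPM in EBs and 2480 CPM in ESCs.

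Folds were taken for the entries kept by a filter on low counts, here called measured. It asked for about 28.8 CPM in as many columns as a group has, which is about 4 counts in EBs and 16 in ESCs. It kept 34 of the 197 late-numbered entries (17.3%), against 332 of the other 428 (77.6%). The measured entries held 96.2% of the late-numbered counts in EBs and 89.1% in ESCs. The 163 under the filter had at most 4 mean counts in EBs and 16 in ESCs, and together took 0.0640% of EB counts and 0.0712% of ESC counts.

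Of the 34 measured late-numbered entries, 8 were at least 2-fold higher in EBs, 8 at least 2-fold lower, and 18 differed less. Among the 366 measured entries of the whole table, 33.6% passed 2-fold upward in EBs and 30.1% downward. The median log2 fold was 0.21 for the late-numbered entries and 0.06 for all measured ones. With library totals in place of TMM, which moves every log2 fold up by 0.29, 13 were higher and 7 lower, beside 38.0% higher and 26.5% lower among all measured entries. Of the 34, 8 passed the filter only through EBs, 6 of them higher, and 3 only through ESCs, all lower, so the filter itself favoured a difference for them and nothing is read from their number. Of the 23 that passed in both groups, 2 were higher (mir-5099 and mir-6240), 5 were lower and 16 differed less than 2-fold. Of all entries of the table that passed in both groups, 29.8% were higher and 28.8% lower.

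**Figure D3:**
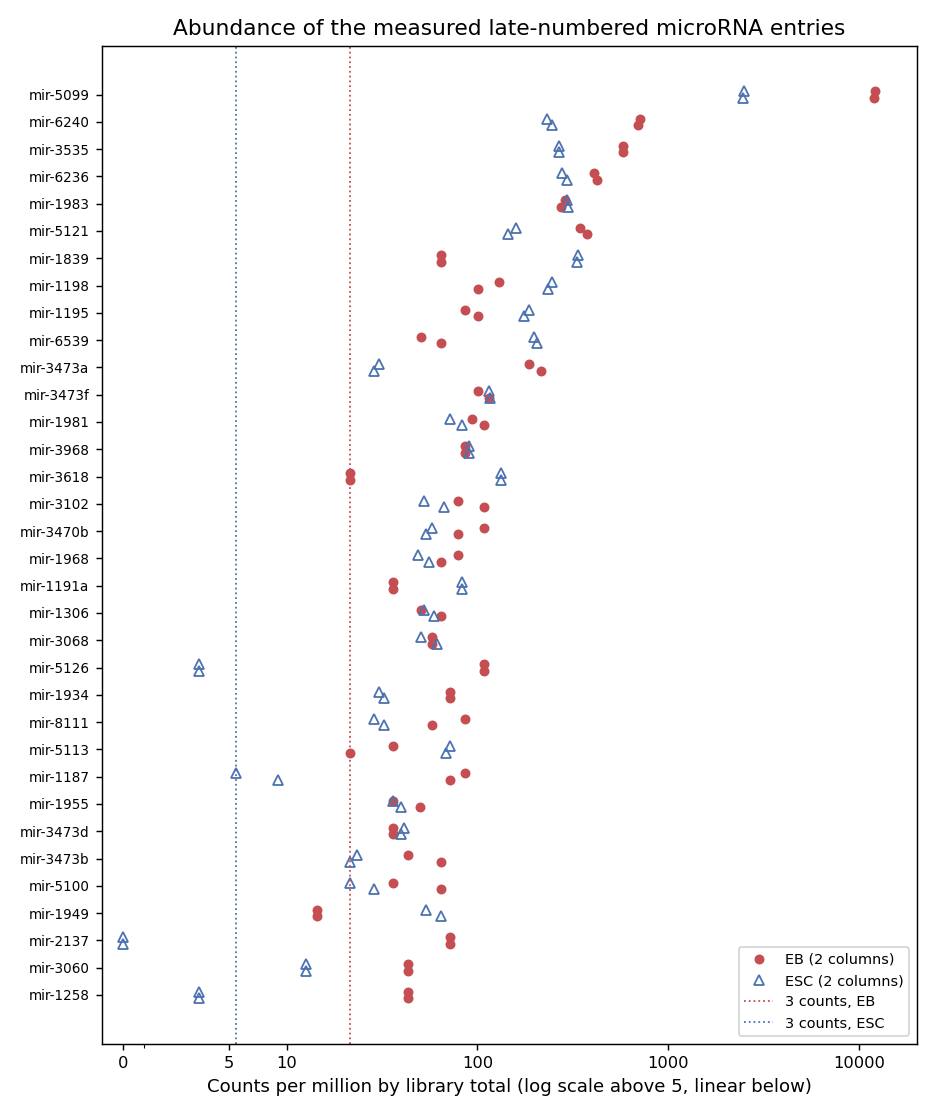
CPM by library total (horizontal axis, log scale above 5 and linear below) for the 34 measured late-numbered entries, with both columns of EBs (red dots) and of ESCs (blue triangles); dotted lines mark 3 counts in each library. The columns of a group lie close together, and mir-5099 exceeds every other entry in both groups.

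Among the entries higher in EBs, mir-5126 (chromosome 1, 84695839 to 84695915) has no host gene on its strand. This entry, whose mature strand shown above holds G and C alone, had 15 counts in each EB column, against 2 in each ESC column. It was 24.5-fold higher in EBs, with an interval of 5.70 to 221 that reflects the few ESC counts. mir-2137, in an intron of Zfp185 on the X chromosome (72992079 to 72992144), had 10 counts in each EB column and 0 in each ESC column. Against the floor of 3 counts for the ESC mean it was 10.9-fold higher, a ratio that takes the EB count as exact and has no counting interval. Its mature strand is 85.7% G and C.

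mir-1187, whose mature strand repeats UG and UA steps, lies on chromosome 5 (82798944 to 82799065) and had 12 and 10 counts in EBs, against 3 and 5 in ESCs. That made it 8.98-fold higher (2.66 to 38.7). mir-1258 had 6 counts in each EB column and 2 in each ESC column, 9.80-fold higher with an interval of 1.75 to 99.3. mir-6240 (chromosome 5, 114851948 to 114852064), with no host gene on its strand, had 99 and 97 counts in EBs, against 128 and 136 in ESCs, 2.42-fold higher (1.85 to 3.17). In the authors' normalized values its log2 fold was 0.59, under 2-fold. mir-3060, in an intron of Rnf215, a gene for a RING finger protein, had 6 counts in each EB column and 7 in each ESC column. Its 2.80-fold difference has an interval that includes 1 (0.777 to 9.73).

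The last of the 8, mir-3473a, is 1 of 6 listed entries named mir-3473. It lies in an intron of Syap1 on the X chromosome (162874918 to 162874995) and had 26 and 30 counts in EBs, against 17 and 16 in ESCs. It was 5.54-fold higher in EBs (2.91 to 10.9). The mature strands of these entries are set out here for comparison.
miR-3473a: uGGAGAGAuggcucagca
miR-3473b: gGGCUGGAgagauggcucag
miR-3473e: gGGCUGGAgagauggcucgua
miR-3473f: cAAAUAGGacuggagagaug
miR-3473d: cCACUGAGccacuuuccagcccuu
miR-3473a and miR-3473b share an unbroken run of 16 bases, and miR-3473b and miR-3473e share 18 and the same seed. miR-3473a lies exactly within transcripts of 146 genes and miR-3473b within those of 343, so reads could have been placed on more than 1 of these entries, and their single values are uncertain.

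With TMM no other mir-3473 entry that had a fold was at least 2-fold apart. mir-3473f, in an intron of Bcl2, which restrains cell death, had 14 and 16 counts in EBs, against 64 and 65 in ESCs, a fold of 0.760 (0.402 to 1.35). mir-3473b had 6 and 9 counts in EBs, against 13 and 12 in ESCs, a fold of 1.96 (0.680 to 5.24). This interval overlaps that of mir-3473a, and mir-3473b passed 2-fold with library totals, at a log2 fold of 1.26. mir-3473d had 5 counts in each EB column, against 23 and 22 in ESCs, a fold of 0.726 (0.215 to 1.96). mir-3473e had 3 and 1 counts in EBs, against 1 and 2 in ESCs, below the floor in both. Summed over the 6 entries the counts were 1.60-fold higher in EBs (1.15 to 2.21). One other entry matched transcripts of many genes, mir-3470b with 546, and its fold was 1.37 (0.658 to 2.69).

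Among the entries lower in EBs, mir-3618 had the lowest fold, with 3 counts in each EB column and 74 in each ESC column. It was 7.55-fold lower in EBs (2.49 to 37.5). Its hairpin (chromosome 16, 18284550 to 18284637) lies in the Dgcr8 messenger RNA, which encodes the partner of Drosha, and the enzyme is known to cut this RNA at its own hairpins. mir-1306, the other hairpin of Dgcr8, lies 233 bases away at 18284239 to 18284317. It had 7 and 9 counts in EBs, against 29 and 33 in ESCs, a fold of 0.843 (0.335 to 1.87). Of the pair, mir-3618 had the higher count in ESCs and the lower one in EBs. The order in EBs rests on mean counts of 3, at the floor, and 8, and no interval was taken for it. Their summed count was 0.342 times that of ESCs (0.166 to 0.638).

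mir-1839 was the most abundant late-numbered entry after mir-5099 in ESCs. It had 9 counts in each EB column, against 188 and 186 in the ESC columns, and was 6.36-fold lower in EBs (3.28 to 14.1). Its mature strand is bases 65 to 86 of a scaRNA of 127 bases that GENCODE gives the same name, inside the noncoding transcript 2900076A07Rik on chromosome 7 (81529916 to 81529988). mir-1949, which also overlaps an exon, had 2 counts in each EB column, against 30 and 36 in ESCs, 5.05-fold lower (1.29 to 43.5). Its hairpin overlaps a snoRNA that GENCODE gives the same name. No mature sequence was at hand to match, so it is not among the snoRNA and scaRNA entries summed below.

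mir-6539, in an intron of Dock5, which encodes an exchange factor for small GTPases, lies on chromosome 14 (67859636 to 67859745). It had 7 and 9 counts in EBs, against 110 and 114 in ESCs, 4.29-fold lower (2.10 to 10.2). mir-5113 overlaps an exon of Tnrc6b on chromosome 15 (80940039 to 80940120), a gene for a protein that binds Argonaute. It had 5 and 3 counts in EBs, against 40 and 38 in ESCs, 2.99-fold lower (1.08 to 11.5). Without EB replicate 2 its log2 fold was -0.98, just under 2-fold. Leaving that column out also redid the scaling, whose log2 shift against library totals went from -0.29 to -0.015. mir-1191a overlaps an exon of BC024978 on chromosome 7 (27205536 to 27205655). It had 5 counts in each EB column and 46 in each ESC column, 2.82-fold lower (1.12 to 9.08).

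mir-1198, in an intron of Gripap1 on the X chromosome (7807101 to 7807221), had 18 and 14 counts in EBs, against 136 and 130 in ESCs. It was 2.55-fold lower (1.51 to 4.58). Without EB replicate 2, with the scaling redone in the same way as for mir-5113, its log2 fold was -0.90, under 2-fold. mir-1195 (chromosome 17, 70860503 to 70860600), with no host gene on its strand, had 12 and 14 counts in EBs, against 103 and 97 in ESCs. It was 2.36-fold lower with TMM (1.32 to 4.58), and under 2-fold with library totals, where its log2 fold was -0.94. Each of the other 7 was at least 2-fold lower with TMM, library totals, DESeq2 size factors and the authors' normalized values. Of the 8 higher ones, 6 were at least 2-fold higher in all 4. The exceptions were mir-6240 and mir-2137, which has no ratio in the normalized values. The 4 scalings use the same counts, so their agreement is no separate support. The filter favoured a difference for mir-1187, mir-1258, mir-2137, mir-3060, mir-3473a and mir-5126, which passed it only through EBs. It did so too for mir-1949, mir-3618 and mir-5113, which passed it only through ESCs.

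**Figure D4:**
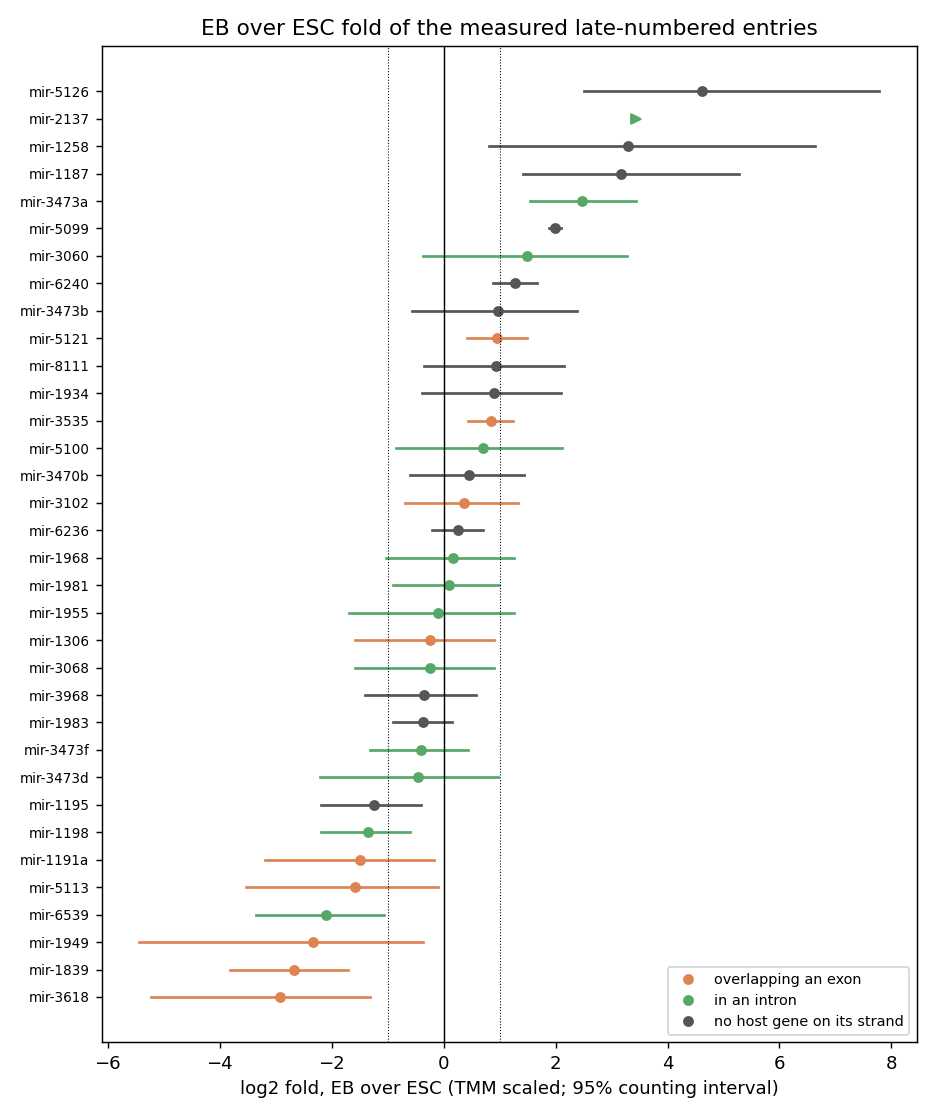
log2 fold of EBs over ESCs (horizontal axis, TMM scaled) for the 34 measured late-numbered entries, with 95% counting intervals as lines. Colours give the position of the hairpin in a host gene, and dotted lines mark 2-fold. The arrowhead for mir-2137 is the ratio with the ESC mean set to 3 counts, without a counting interval. mir-5126 lies highest at 4.61 and mir-3618 lowest at -2.92.

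By position, 105 of the late-numbered hairpins lay in introns, 54 overlapped an exon of another gene on the same strand, 34 had no host on their strand, and 4 could not be placed. Among entries that passed the filter in both groups, 6 late-numbered ones overlapped an exon, of which 0 were higher in EBs and 2 lower, beside 6 higher and 20 lower of 52 in the whole table. Of 8 intronic ones, 0 were higher and 2 lower, beside 60 higher and 28 lower of 144. Of 9 without a host, 2 were higher and 1 was lower, beside 19 higher and 33 lower of 92. Nothing particular to the late-numbered entries is read from these counts. The summed counts of intronic entries (0.845, 0.713 to 0.997) and of exon-overlapping ones (0.841, 0.718 to 0.983) stood in nearly the same ratio of EBs to ESCs. The exon-overlapping sum leans on mir-3535 and mir-5121, which gave 81 and 50 of its 203 mean counts in EBs. In ESCs they gave 148 and 84 of 788. The median log2 fold of the measured entries was -0.0055 for intronic and -1.49 for exon-overlapping ones, some of which passed the filter through 1 group only. Without a host the ratio was 3.04 (2.86 to 3.23), which includes mir-5099. By number, the sum of the 1000s was 0.588 times that of ESCs (0.495 to 0.694), the 3000s 1.17 (0.995 to 1.37), the 6000s 1.24 (1.04 to 1.47) and the 7000s to 9000s 1.38 (0.900 to 2.07). In the 6000s, mir-6240 alone gave 98 of 187.5 mean counts in EBs and 132 of 495.5 in ESCs, so that ratio leans on 1 entry. The 5000s, with mir-5099, stood at 3.72 (3.47 to 3.99).

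Mature strands of 9 late-numbered entries lay exactly within an annotated snoRNA or scaRNA, and summed over them the EB counts were 0.975 times the ESC ones (0.806 to 1.17). Only exact matches to GENCODE transcripts were searched, so other entries, mir-6240 among them, could match RNAs that GENCODE does not list. Entries without a mature sequence at hand, among them mir-5099, mir-6539 and mir-1258, were not matched at all. The 9 matched entries went different ways. mir-3535 had 81 counts in each EB column and 148 in each ESC column, a fold of 1.79 (1.35 to 2.36). It is bases 1 to 26 of a snoRNA of 80 bases within Ncl, the gene for nucleolin, on chromosome 1 (86351981 to 86352127). mir-5121 had 48 and 52 counts in EBs, against 88 and 80 in ESCs, a fold of 1.94 (1.34 to 2.79). It is bases 3 to 23 of the 84 bases of Snord33, in the ribosomal protein gene Rpl13a on chromosome 7 (45126918 to 45126991). Both passed 2-fold with library totals, at log2 folds of 1.13 for mir-3535 and 1.25 for mir-5121, while the authors' normalized values gave 0.14 for mir-3535 and 0.34 for mir-5121. Reads from the snoRNA and from the microRNA entry cannot be told apart where the letters are the same.

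The scaRNA entries other than mir-1839 were read at 0 in EBs. mir-1843a, in an intron of Dcaf5, had 0 counts in both EB columns, against 16 and 14 in ESCs. mir-1843b, in Cop1, which encodes a ubiquitin ligase, had 0 in both EB columns, against 9 and 11 in ESCs. Their 5p strands, shown above, share 20 bases in a run, and miR-1843b-5p lies exactly within both Scarna3a and Scarna3b, so counts could be divided between the entries. mir-6516, in the snoRNA host gene Snhg20, had 0 in both EB columns, against 8 and 16 in ESCs. With the EB mean set to the floor of 3 counts, mir-1843a was 1.53-fold lower in EBs, mir-6516 1.22-fold and mir-1843b 1.02-fold. These ratios take the ESC counts as exact and have no counting interval, so they are not firm bounds. At the EB depth a count of 0 can therefore show only a small difference, if any.

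The remaining entries at 0 in EBs with 10 or more counts in ESCs were mir-1194 and mir-3062. mir-1194 had 0 in both EB columns, against 15 and 17 in ESCs, 1.63-fold lower with the EB mean set to the floor. mir-3062 overlaps an exon of Pfas, the gene of an enzyme of purine synthesis. It had 0 in both EB columns, against 13 and 11 in ESCs, 1.22-fold lower on the same basis. Neither ratio has a counting interval. mir-3068, which lies in a snoRNA in an intron of Alkbh1, was counted in both groups, with 8 counts in each EB column and 28 and 34 in the ESC columns. Its fold of 0.843 (0.335 to 1.87) was under 2-fold.

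Several well-read entries differed by less than 2-fold. mir-1983 had 40 and 38 counts in EBs, against 163 and 165 in ESCs, a fold of 0.777 (0.533 to 1.11); in the authors' normalized values its log2 fold was -0.97. mir-6236 had 57 and 59 counts in EBs, against 155 and 163 in ESCs, a fold of 1.19 (0.866 to 1.62). mir-1981, in an intron of Marc2, had 13 and 15 counts in EBs, against 40 and 46 in ESCs, a fold of 1.06 (0.537 to 1.98). mir-3968 had 12 counts in each EB column and 50 in each ESC column, a fold of 0.784 (0.380 to 1.49). For these 4 the counting interval of the TMM fold included 1. The same held for 6 more of the 18 measured entries under 2-fold, mir-1934, mir-1955, mir-1968, mir-3102, mir-5100 and mir-8111. Their folds ran between 0.933 for mir-1955 and 1.92 for mir-8111. The rest of the 18 are given above, and of these mir-3535 (1.35 to 2.36) and mir-5121 (1.34 to 2.79) had intervals above 1.

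mir-1224, a mirtron of Vwa5b2 (an intron that is itself the hairpin), had 0 counts in both EB columns and 1 in each ESC column. mir-1249 had 0 in both EB columns and 2 in each ESC column. Within the imprinted Dlk1 to Dio3 region on chromosome 12, mir-1247 had 1 count in each EB column and 0 in each ESC column, and mir-3072 had 0 in each EB column and 6 in each ESC column. No fold is given for these 4. The strand opposite mir-24-1 holds mir-3074-1, with 1 count in each EB column and 5 in each ESC column, while mir-24-1 had 246 and 250 in EBs, against 4046 and 4047 in ESCs. Opposite mir-24-2, with 259 and 255 counts in EBs, against 4162 and 4178 in ESCs, mir-3074-2 had 0 in every column.

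The late-numbered strands were richer in G and C than the rest of the table, as a description without a test. The median G and C content of their mature strands was 56.8%, against 47.6% for the other entries, and that of their hairpins 54.97%, against 47.5%. Their hairpins had a median length of 78 bases, against 83. RefSeq lists a single mature strand for 71 of 180 late-numbered entries (39.4%), against 14.6% of the others. Seeds were shared with an entry outside the late-numbered list for 17 of them, of which 4 were measured. These were mir-1983 with mir-412, mir-3102 with mir-702, mir-3473d with mir-674, and mir-6240 with mir-330. A seed shared with another late-numbered entry was found for 27.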

How the data were processed

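Small RNA of 4 samples of the line CGR8 was sequenced, 2 labelled as EBs at day 8 and 2 as ESCs at day 0; about 100 ng entered each library, which was amplified by PCR and read on 316 chips of an Ion Torrent PGM, per the labels' protocols. The authors deposited raw counts per microRNA gene, with no normalization, per the file headers, and a normalized signal that holds the same set of values in each column, as quantile normalization gives. The aligner, build and microRNA release were not given in the sources used here.

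From the row of mir-664 on, the deposited counts of 170 rows, 81 of them late-numbered, sat 1 row too low and were moved up. The rank correlation with the normalized signal was 0.355 to 0.541 before the move and 0.995 to 0.998 after it. The move left mir-99b, which is not late-numbered, without counts, and it was left out.

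Folds are ratios of group mean counts after TMM scaling (edgeR 4.0.16) computed on the whole table after filterByExpr with a minimum count of 10 and a minimum total of 15, with exact conditional binomial intervals. Shares have exact Clopper-Pearson intervals. PCR copies were counted as reads, so intervals and floors cover counting error only. A mean of 0 was set to 3 counts, the fold then taking the count of the other group as exact, without a counting interval. No fold is given where both groups were at or under 3 or where the floor would turn the direction. Expected detection at the EB depth is the hypergeometric expectation for the ESC counts. The depth gives a floor of 21.6 CPM in EBs and 5.40 CPM in ESCs.

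Names and positions came from GENCODE M21 (GRCm38), matched by name for 185 entries and placed for 193, and sequences from RefSeq (GRCm38.p6). Mature strands were matched to GENCODE M21 transcripts only, and RNAs missing from these were not searched. The entries named in the text were the 15 most abundant, the 6 highest and 6 lowest folds with at least 10 counts in a group, those at 0 in 1 group with at least 10 counts in the other, a short list of hosts and mirtrons, and those opposite a microRNA gene or between Dlk1 and Dio3; others were chosen after their values were seen. The entries and lists were chosen with earlier results of these data known. Alternatives were library totals, DESeq2 1.42.0 size factors, the normalized signal, other filters, floors and row order, summed copies, and each column left out. The fold calculation was tested on simulated data. R 4.3.3, Python 3.11.15, pandas 2.3.3 and scipy 1.17.1 were used.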

Additional observations from a re-analysis of the deposited data

How the results depend on the processing

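With 1 library a group the spread between cultures is unknown, and the EB depth limits every entry near the floor. Of the 8 entries higher in EBs, library totals gave 13 and summing numbered copies of 1 microRNA 13, and leaving out a column gave 6 to 10; of the 8 lower ones, leaving out a column gave 6 to 8. The median log2 fold of the measured entries, 0.21, was 0.50 with library totals, -0.24 in the authors' normalized values, -0.41 with no filter, 0.089 with counts as deposited and 0.47 with summed copies, and 0.030 (without EB replicate 2) to 0.257 when a column was left out. The log2 fold of the summed count, 1.09, was 1.38 with library totals, 1.22 in the normalized values, 0.95 with no filter, 1.37 with a 10-count filter, -0.20 with counts as deposited, 1.30 with summed copies, 1.04 to 1.37 when a column was left out, and -0.0022 without mir-5099, an alternative chosen after seeing the data. The scaling factors alone set the log2 shift against library totals between -0.43 and 0 over the alternatives run on counts, while the normalized values move each entry by its own amount. Leaving out a column redid the filter and the scaling too. The shift was then -0.33 without ESC replicate 1 and -0.015 without EB replicate 2, so these ranges do not show differences between columns alone. Late-numbered entries detected in EBs were 97 with at least 1 count and 20 with at least 10, and in ESCs 167 and 37, or 30.4 at the EB depth; leaving out a column gave 34 in EBs throughout and 64 to 67 in ESCs. The share with counts as deposited was 2.50% in EBs and 2.35% in ESCs, and without mir-5099 0.495% in EBs and 0.406% in ESCs. No measured entry past 2-fold changed direction under the alternatives that gave it a value; mir-2137 has none in the normalized values. For the other values the cause was not tested. No paired analysis was possible because the results come from no test and the columns of a group were counted as 1 sample.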

Other observations

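The authors' normalized signal gives some 0 counts in EBs a value above 0, by place in the row order. Late-numbered entries at 0 in both EB columns had a mean normalized value of 0 up to mir-5134. It was 0.25 for mir-5616 and 0.5 for those in later rows. The reason was not tested. In the EB columns 100 and 101 late-numbered entries had 0 counts; 42 of them in each column had a normalized value of 0, and 58 and 59 had a value above 0, of at most 0.5. In the ESC columns all 30 and 31 entries at 0 counts had a normalized value of 0.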
